A study of Mus musculus with 12 samples.

Results

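Immediate early transcription factors were followed here as 10 genes: Egr1, Egr2, Egr3, Egr4, Fos, Fosb, Jun, Junb, Klf6 and Ier2. They were taken by name from the authors' deposited table, where all 10 were found among 23226 features that carry 1 gene name. The RNA came from 3 lines of mouse small cell lung cancer, all tumor-derived and all Trp53-/-;Rb1-/-, with 2 samples in each of 6 groups. Of these, 16T and KP1 are labelled Nfib high and carried a control shRNA (shLuc) or an shRNA against Nfib, and KP22, labelled Nfib low, carried an empty vector or Nfib cDNA. Nfib codes for a DNA-binding protein of the NFI (nuclear factor I) family, and the comparisons ask which transcripts change where it is lowered or raised. Both knockdown lines have an shRNA of the same name (sh2), so the effect of lower Nfib and that of any other target of this shRNA cannot be told apart. The cells grow as floating spheres in RPMI with 10% FBS, and the time from feeding to harvest is not given in the sources used here.

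Immediate early genes are transcribed within minutes of a growth factor, serum, calcium or stress signal, without new protein being made first. The kinases ERK, JNK and p38 and the cyclic AMP pathway act on factors already bound at their promoters: serum response factor with its ternary complex partners at CArG boxes, and CREB at cyclic AMP response elements (CREs). Egr1 to Egr4 encode zinc finger activators that bind GC-rich sites. Fos and Fosb encode leucine zipper proteins that pair with Jun or Junb to form the AP-1 factor. Klf6 encodes a Kruppel-like zinc finger factor and Ier2 a small nuclear protein. Their transcripts are short-lived, so their level follows recent signalling closely.

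Promoter sequences were matched in RefSeq (GRCm38.p6, the build of mm10) for 7 of the 10 genes: Egr2, Egr4, Fos, Fosb, Jun, Junb and Klf6. A selection of 4 genes with different responses is shown, each as the 250 bases before a transcription start. They are Fos at chr12:85473640-85473889 (plus strand), Egr4 at chr6:85513590-85513839 (minus strand), Junb at chr8:84978749-84978998 (minus strand) and Egr2 at chr10:67537619-67537868 (plus strand, 1 of its 5 listed starts). Capitals mark CRE core sites (TGACG, on either strand), the CArG box and the TATA box (TATAAA).
Fos: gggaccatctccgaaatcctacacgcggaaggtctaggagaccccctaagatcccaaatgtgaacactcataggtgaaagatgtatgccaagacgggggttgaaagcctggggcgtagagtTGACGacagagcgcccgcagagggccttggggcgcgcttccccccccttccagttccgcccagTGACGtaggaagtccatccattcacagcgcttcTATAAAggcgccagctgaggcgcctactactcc
Egr4: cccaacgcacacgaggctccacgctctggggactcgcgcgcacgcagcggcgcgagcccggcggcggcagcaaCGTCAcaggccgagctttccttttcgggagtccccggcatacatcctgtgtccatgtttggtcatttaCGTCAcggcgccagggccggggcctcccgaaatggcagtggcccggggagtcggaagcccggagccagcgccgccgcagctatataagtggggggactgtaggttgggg
Junb: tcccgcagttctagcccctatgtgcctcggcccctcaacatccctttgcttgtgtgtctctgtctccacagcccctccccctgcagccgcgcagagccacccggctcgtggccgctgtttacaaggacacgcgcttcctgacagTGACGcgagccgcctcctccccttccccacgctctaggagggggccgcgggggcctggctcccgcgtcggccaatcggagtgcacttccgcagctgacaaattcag
Egr2: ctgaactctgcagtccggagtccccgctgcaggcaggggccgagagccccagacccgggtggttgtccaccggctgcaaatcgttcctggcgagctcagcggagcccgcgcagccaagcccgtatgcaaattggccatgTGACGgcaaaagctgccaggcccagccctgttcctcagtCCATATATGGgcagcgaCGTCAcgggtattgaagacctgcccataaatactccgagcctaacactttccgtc
A CRE core site was found in 5 of the 7 genes: in the single window of Egr4, Fos, Fosb and Junb, and in 3 of the 5 windows of Egr2. These 3 windows of Egr2 overlap and hold the same 2 core sites. The CArG box, a 10-base serum response element, was found in Egr2 only of the 7 genes, in 4 of its windows. The 3 overlapping windows among these hold the same CArG box. Over 32807 windows of this length, counted singly and so not in the same unit as a gene with several windows, 17.8% hold a CRE core site and 1.47% a CArG box. The 8-base CRE (TGACGTCA, which contains the core site on both strands) was in none of the 7 genes and in 1.55% of windows. A short NFI site (TTGGCA, either strand) was in the Fos window and in 1 window of Egr2 that is not the one printed, and 12.3% of all windows hold one. The full palindromic NFI site was in none of the 7. A match gives letters in this window only, with no measurement of binding.

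The values are log2 fold changes and SEs from the authors' fit, with 1 mean normalized count per gene over its libraries. Values per sample were not used here, so depth, the level in each group and overlap between groups are not given. Replicates are not said to be separate cultures, and a p-value here covers only the spread between the samples sequenced, which may be technical. Column headings do not say which arm is the numerator. Nfib served to read it: its log2 fold change per the authors' deposited table was -1.08 ± 0.035 for 16T, -1.32 ± 0.035 for KP1 and 1.80 ± 0.036 for KP22. The words rose and fell are kept for genes whose adjusted p was below 0.05. Each ± is an SE. The neuroendocrine markers Chga, Insm1 and Syp had means of 25383, 15922 and 5290 per the authors' deposited table. Among leukocyte markers of the authors' deposited table, 5 of 6 had means under 10 (Ptprc 1.38, Cd3e 0), while 3 of 6 fibroblast and 3 of 6 endothelial markers did (Col3a1, Emcn and Cldn5 at 0; Pdgfra 2220). In such bulk samples fewer expressing cells and less RNA per cell cannot be told apart.

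The 10 genes differed widely in level. Per kilobase of counted exon, in mean normalized counts from the authors' deposited table, Jun was highest at 2372. Ier2 (887), Egr1 (754), Fos (546), Junb (545) and Klf6 (519) lay close together per the authors' deposited table. Fosb followed at 61.4, Egr4 at 28.8, Egr2 at 19.8 and Egr3 at 2.48 per kilobase per the authors' deposited table. Without division by length, Jun (7561) was followed in mean count by Egr1 (2317), Klf6 (2190), Ier2 (1351), Fos (1144) and Junb (1004). Whether the counts were already adjusted for length is not stated, so the order per kilobase may correct for it more than once. The authors gave no error for these means, so neighbours such as Fos and Junb are not ranked. Egr3, at a mean of 9.93, lay under the mean below which the authors gave no adjusted p in 16T and KP1 (15.7), so 9 of the 10 genes were tested in those lines and all 10 in KP22.

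**Figure D1:**
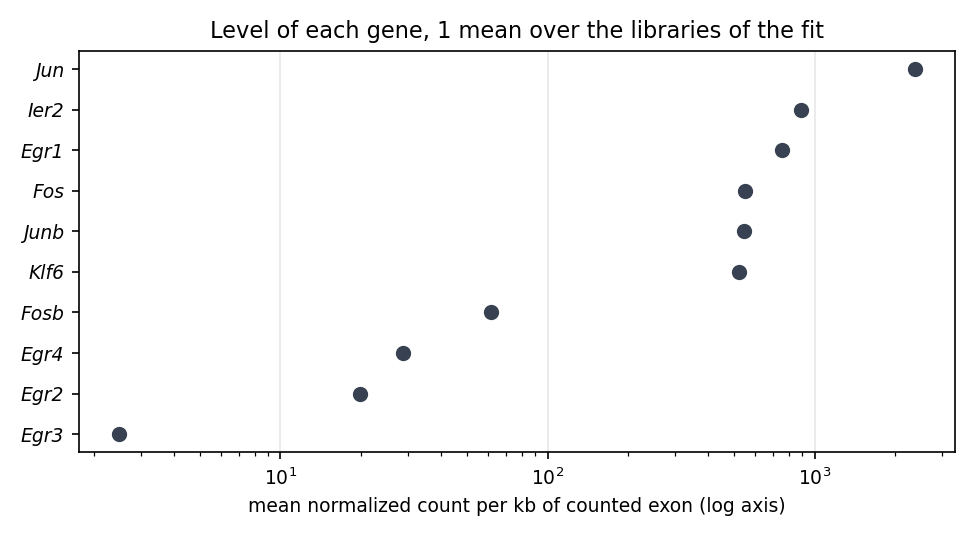
Mean normalized count per kilobase of counted exon (log axis) for each of the 10 genes, 1 mean over the libraries of the authors' fit. Jun stands at 2372, 5 genes lie between 519 and 887, and Egr3 is lowest at 2.48.

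All 10 are protein-coding genes, and the authors' deposited RefSeq exon intervals on mm10 place them as follows. Egr1 has 2 exon intervals on chromosome 18 (34861207 to 34864956), Fos 4 on chromosome 12 (85473901 to 85477270) and Jun 1 on chromosome 4 (95049036 to 95052222). Egr4 has 2 intervals on chromosome 6 (85511122 to 85513542), Fosb 4 on chromosome 7 (19302696 to 19310045) and Klf6 4 on chromosome 13 (5861489 to 5870393). Junb (84976909 to 84978748) and Ier2 (84661331 to 84662852) each have 1 interval on chromosome 8. Egr2 has 2 on chromosome 10 (67537869 to 67542188) and Egr3 has 4 on chromosome 14 (70077445 to 70082613). None of the 10 has exons merged with another gene in the authors' interval list. In GENCODE M21, Junos, an antisense gene, has an exon on the opposite strand within the Jun interval, and the counting is not stated to use strand, so their reads may not be told apart.

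In 16T with the Nfib shRNA, 6 of the 9 tested genes rose and 0 fell, against 20.0% of 14504 tested genes that rose and 25.3% that fell. At means of 1000 or more the shares were 24.4% and 32.3%. The 9 had a median log2 fold change of 0.67, against -0.05 over all tested genes. Egr1, Fos and Klf6 had the largest rises, while Jun, Junb and Ier2 rose by less.

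The zinc finger gene Egr1 stood at 299% of its control level in 16T per the authors' deposited table (95% interval of the log2 fold change 1.36 to 1.80). Only 1.43% of tested genes had a higher log2 fold change there. Its relatives, counted at far lower levels, had no call: Egr2 had 0.67 ± 0.35 and Egr4 0.78 ± 0.37 per the authors' deposited table; the adjusted p were 0.11 and 0.0798. Egr3 was not tested and had -0.55 ± 0.52 per the authors' deposited table.

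Among the AP-1 genes, Fos stood at 254% of control in 16T per the authors' deposited table, with an interval of 1.10 to 1.59 on the log2 scale. Its partner Jun rose by 0.54 ± 0.048 (adjusted p = 3.63e-28) per the authors' deposited table, and Junb by 0.48 ± 0.11 (adjusted p = 0.000106). Fosb, the close relative of Fos, had 0.14 ± 0.20 per the authors' deposited table (adjusted p = 0.63). Its interval of -0.26 to 0.54 lies below that of Fos. Klf6 stood at 241% of control per the authors' deposited table (adjusted p = 3.03e-74), and Ier2 rose by 0.35 ± 0.094 (adjusted p = 0.000737). By the authors' second test, against 0.5 on the log2 scale, Egr1, Fos and Klf6 passed, 3 genes, against 5.25% of genes so tested.

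In KP1 with the Nfib shRNA, 7 of the 9 tested genes rose and 0 fell, against 17.6% of 14504 genes that rose and 19.6% that fell. At means of 1000 or more the shares were 21.6% and 24.7%. The median of the 9 was 0.44 on the log2 scale, against -0.02 over all tested genes. The rises were smaller than in 16T for Egr1, Fos and Klf6 (the test of each difference is given with the comparison of the lines), and Egr2 rose as well.

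Egr1 stood at 193% of control in KP1 per the authors' deposited table, with an interval of 0.75 to 1.15 on the log2 scale. Egr2, which is known for its role in hindbrain and Schwann cell development, stood at 208% of control per the authors' deposited table (adjusted p = 0.0168). Its interval was wide, 0.33 to 1.78, and the call was lost under a t reference with 6 degrees of freedom (adjusted p = 0.109; range over the alternatives 0.0153 to 1). Egr4 had -0.74 ± 0.34 per the authors' deposited table (adjusted p = 0.0846), the only tested gene of the Egr family with a negative value in this line. Egr3 was not tested and had 0.23 ± 0.52 per the authors' deposited table.

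Fos rose by 0.66 ± 0.12 in KP1 per the authors' deposited table (adjusted p = 3.25e-07) and Junb by 0.62 ± 0.11 (adjusted p = 4.57e-07). Jun rose by 0.44 ± 0.048 per the authors' deposited table (adjusted p = 1.58e-18). Fosb again had no call, at -0.17 ± 0.22 per the authors' deposited table (adjusted p = 0.62). Klf6 rose by 0.38 ± 0.071 and Ier2 by 0.37 ± 0.092 per the authors' deposited table (adjusted p = 9.39e-07 and 0.000317). Only Egr1 of the 10 genes passed the authors' test against 0.5 in KP1, where 4.58% of genes passed.

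In KP22 with Nfib cDNA, 6 of the 10 tested genes fell and 0 rose, against 18.8% of 17544 genes that fell and 19.5% that rose. At means of 1000 or more the shares were 25.4% and 30%. The median of the 10 was -0.32 on the log2 scale, against 0.04 over all tested genes. Egr1 and Fos fell the most, followed by Egr4 and Fosb, and Jun and Junb fell slightly.

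Egr1 was at 9.68% of its control level in KP22, a 10.3-fold fall, per the authors' deposited table (-3.37 ± 0.13, adjusted p = 2.02e-155). Ordered from the lowest log2 fold change, it had rank 37 of 17544 tested genes. Egr4 was at 30.1% of control per the authors' deposited table (-1.73 ± 0.40, adjusted p = 9.05e-05). Egr2 did not share this fall: it had 0.67 ± 0.44 per the authors' deposited table (adjusted p = 0.258), and its interval of -0.20 to 1.53 lies above those of Egr1 (-3.62 to -3.12) and Egr4 (-2.52 to -0.95). Egr3 had -0.17 ± 0.51 per the authors' deposited table (adjusted p = 0.849), with an interval of -1.17 to 0.83.

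Fos was at 18.4% of control in KP22, a 5.43-fold fall, per the authors' deposited table (-2.44 ± 0.13, adjusted p = 1.51e-82), rank 119 from the lowest. Fosb, which had no call in either knockdown line, fell by 1.25 ± 0.20 per the authors' deposited table (adjusted p = 4.9e-09) to 42.0% of control. The Jun side of AP-1 moved less: Jun was at 82.6% and Junb at 77.5% of control per the authors' deposited table; the adjusted p were 3.23e-08 and 0.00399. The Junb call was lost under a t reference with 6 degrees of freedom (adjusted p = 0.067; range over the alternatives 0.00125 to 1). Klf6 had -0.12 ± 0.072 and Ier2 -0.20 ± 0.089 per the authors' deposited table; the adjusted p were 0.216 and 0.0729. Recentred on the median gene, Ier2 had an adjusted p of 0.0263 (range over the alternatives 0.0263 to 1). By the authors' test against 0.5, Egr1, Egr4, Fos and Fosb passed, 4 genes, against 7.66% of genes so tested.

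**Figure D2:**
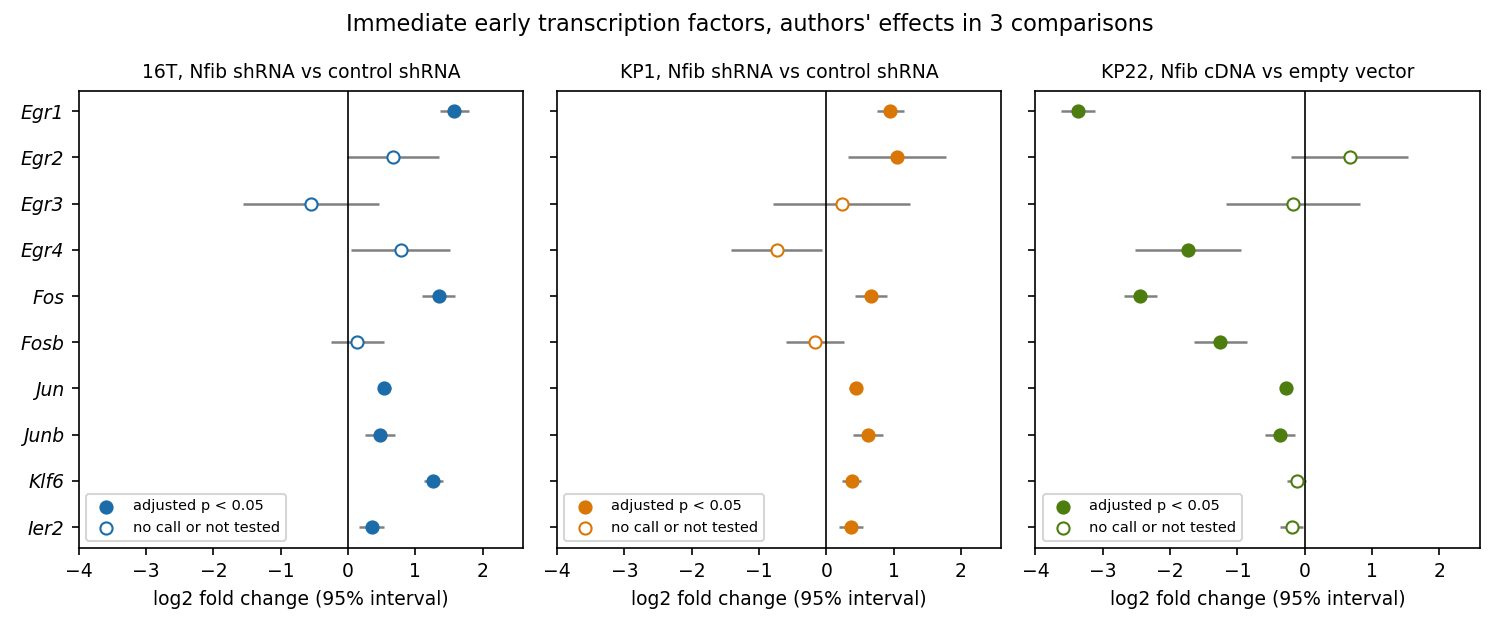
Log2 fold change of each gene per the authors' deposited table (x axis) with 95% intervals, in 16T, KP1 and KP22; filled points had an adjusted p below 0.05 and open points had no call or were not tested. Egr1 and Fos lie to the right of 0 in both knockdown panels and at -3.37 and -2.44 in the KP22 panel, while Egr2 lies to the right of 0 in all 3.

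Set side by side, Egr1, Fos, Jun and Junb rose in both knockdown lines and fell with Nfib cDNA, 4 of the 9 genes tested in all 3 comparisons. Of 14504 genes tested in all 3, 4.76% had this pattern and 5.33% the reverse one. Klf6 and Ier2 rose in both knockdown lines with no call in KP22. Egr4 and Fosb fell in KP22 with no call in either knockdown line. The 3 comparisons share no samples.

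The 16T and KP1 effects were compared with each other, with errors added as independent, a normal reference and Benjamini-Hochberg adjustment over 15008 genes with a mean of at least 10. Of the 9 genes in this test, 4 differed with the higher value in 16T and 0 with the higher value in KP1, against 14% and 15.5% of all genes. Klf6 had the clearest difference, 0.89 ± 0.099 on the log2 scale (adjusted p = 7.71e-18). Egr1 was higher in 16T by 0.63 ± 0.15 (adjusted p = 0.000288) and Fos by 0.68 ± 0.17 (adjusted p = 0.000589). Egr4 differed by 1.52 ± 0.51 (adjusted p = 0.0121), its value being positive in 16T and negative in KP1. Under a t reference with 6 degrees of freedom the differences of Fos and Egr4 were lost (adjusted p = 0.0557 and 0.108; ranges over the alternatives 4.98e-06 to 0.0557 and 0.0102 to 0.108). That of Egr1 was kept close to the threshold (adjusted p = 0.0495, range over the alternatives 1.69e-07 to 0.0495).

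For the remaining genes no difference between 16T and KP1 was called, with intervals that limit it to different degrees. The interval for Jun was -0.03 to 0.24 on the log2 scale, for Ier2 -0.28 to 0.24 and for Junb -0.46 to 0.17. Those of Fosb (-0.28 to 0.89) and Egr2 (-1.38 to 0.62) were wider. Divided by the change in Nfib itself, an alternative chosen after seeing the data, Jun also differed (0.17 ± 0.057 per log2 unit of Nfib, adjusted p = 0.0122; range over the alternatives 0.0122 to 0.367).

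The knockdown effects, averaged over 16T and KP1, were then added to the KP22 effect. This sum is 0 where lowering and raising Nfib gave changes of equal size and opposite sign, but Nfib itself changed by more in KP22. Of 9 genes, 4 had a sum below 0 and 3 a sum above 0, against 19% and 17.7% of 15008 genes.

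Egr1 (-2.10 ± 0.15), Fos (-1.44 ± 0.15), Fosb (-1.27 ± 0.25) and Egr4 (-1.71 ± 0.47) had sums below 0 (adjusted p = 1.75e-44, 9.77e-20, 3.12e-06 and 0.0014). For Egr1 this was -0.78 ± 0.095 and for Fos -0.48 ± 0.10 per log2 unit of Nfib. Klf6 (0.71 ± 0.087), Jun (0.21 ± 0.058) and Egr2 (1.53 ± 0.51) had sums above 0 (adjusted p = 1.07e-14, 0.00116 and 0.00937). Klf6 and Jun rose with shRNA by more than they were lower with cDNA, whereas Egr2 had positive values on both sides. Junb (0.18, interval -0.09 to 0.45) and Ier2 (0.17, interval -0.05 to 0.38) had no call. Per log2 unit of Nfib, an alternative chosen after seeing the data, both were called. Junb had 0.25 ± 0.092 (adjusted p = 0.0183, range over the alternatives 0.0183 to 0.409). Ier2 had 0.19 ± 0.074 (adjusted p = 0.0263, range over the alternatives 0.0263 to 0.349). Under a t reference with 6 degrees of freedom the sums of Egr2 and Egr4 had adjusted p of 0.0844 and 0.0505 (ranges over the alternatives 0.00349 to 0.0844 and 0.00131 to 0.0505).

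**Figure D3:**
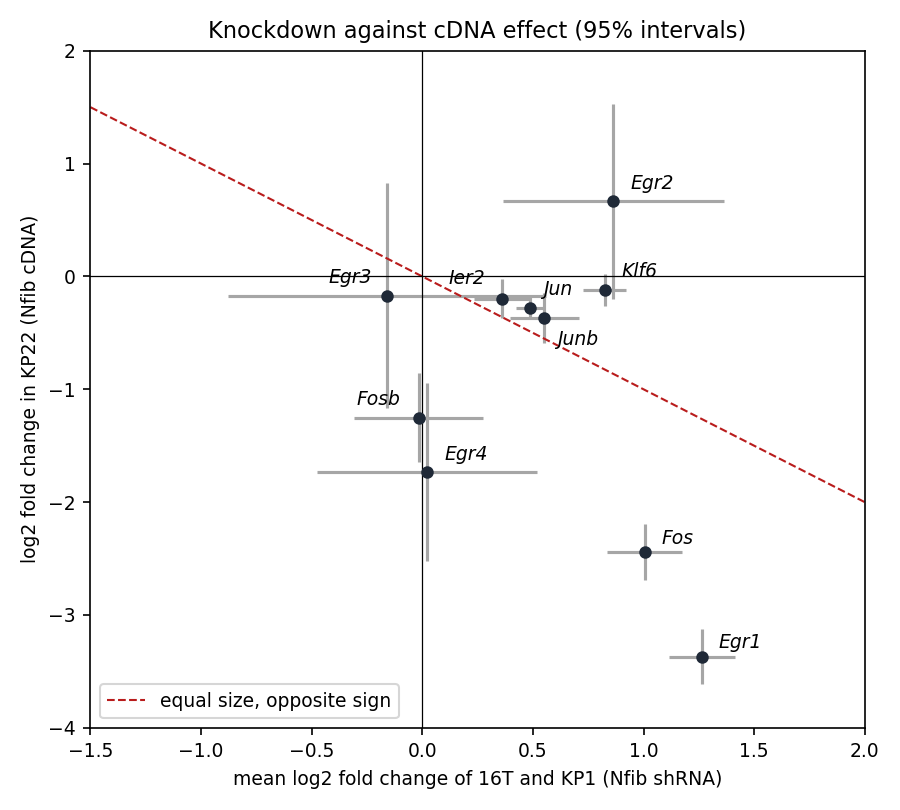
Mean log2 fold change of 16T and KP1 (x axis) against the log2 fold change in KP22 (y axis) for the 10 genes, with 95% intervals; the dashed line marks equal size and opposite sign. Egr1 and Fos lie below the line, with sums of -2.10 and -1.44, and Egr2 lies at the upper right. Junb and Ier2 lie near the line with no call, and Jun lies slightly above it, with a called sum of 0.21.

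Other immediate early genes, 32 on a list drawn up with earlier results known, did not move in 1 direction. In 16T, 11 of 29 tested rose and 4 fell, in KP1 6 of 29 rose and 3 fell, and in KP22 13 of 32 rose and 4 fell. Their medians were 0.17, -0.02 and 0.19 on the log2 scale, against -0.05, -0.02 and 0.04 over all tested genes.

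The shares of all tested genes that rose and fell were 20.0% and 25.3% (16T), 17.6% and 19.6% (KP1), and 19.5% and 18.8% (KP22).

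Rhob, a small GTPase gene named after its values were seen, was the 1 gene of the list called in the pattern of Egr1 per the authors' deposited table (0.41 ± 0.063, 0.27 ± 0.063 and -0.32 ± 0.066). Nr4a1 and Ier5 had the reverse pattern. Nr4a1, an orphan nuclear receptor gene, fell in 16T (-0.71 ± 0.18) and KP1 (-0.58 ± 0.18) but rose with Nfib cDNA (0.61 ± 0.17) per the authors' deposited table (adjusted p = 0.000329, 0.00501 and 0.00153). Ier5 fell by 0.62 ± 0.089 and by 0.41 ± 0.094 in the knockdown lines and rose by 0.77 ± 0.092 in KP22 per the authors' deposited table. Nr4a2 had -0.49 ± 0.14 in 16T and 1.02 ± 0.12 in KP22 per the authors' deposited table, both called, and -0.32 ± 0.14 in KP1 with no call.

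The other named genes of the list had other patterns. Npas4, a factor induced by calcium in neurons, fell in all 3 comparisons per the authors' deposited table (-0.87 ± 0.20, -1.17 ± 0.19 and -2.45 ± 0.20). Klf4, a relative of Klf6, rose in all 3 per the authors' deposited table (0.67 ± 0.14, 0.58 ± 0.16 and 1.05 ± 0.17). Jund, the third Jun gene, had no call in 16T (0.07 ± 0.05) or KP22 (0.03 ± 0.052) and rose in KP1 (0.37 ± 0.05) per the authors' deposited table. Plk2, a polo-like kinase gene, rose in 16T (0.87 ± 0.15) and fell in KP22 (-1.09 ± 0.20) per the authors' deposited table. In 16T the largest rises of the list per the authors' deposited table were Ier3 (1.25 ± 0.35) and Maff (1.16 ± 0.082).

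**Figure D4:**
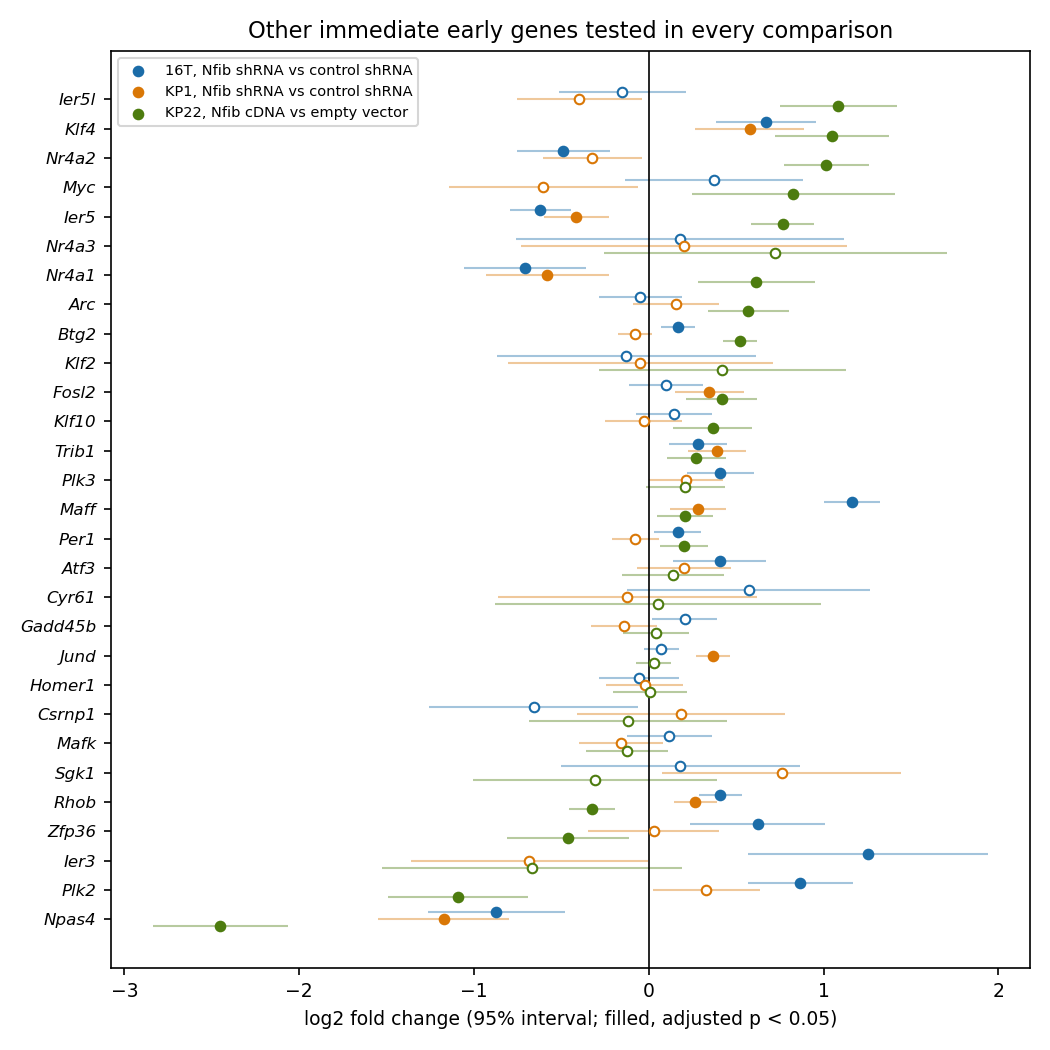
Log2 fold change (x axis, 95% intervals) of the 29 other immediate early genes tested in all 3 comparisons, in 16T, KP1 and KP22, ordered by the KP22 value; filled points had an adjusted p below 0.05. Npas4 is lowest in KP22 at -2.45, and Nr4a1 and Ier5 lie on opposite sides of 0 in the knockdown lines and in KP22.

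Signalling around these genes was described in 3 lists: ERK feedback genes, kinase genes, and genes for the factors of immediate early promoters. Only transcript levels are given, and kinase activity was not measured. The lists are to be read against the same shares of all tested genes (20.0% up and 25.3% down for 16T, 17.6% and 19.6% for KP1, 19.5% and 18.8% for KP22). The medians over all tested genes were -0.05, -0.02 and 0.04. The list of 17 ERK feedback genes also holds the Ras regulators Rasa1 and Nf1, so not all of its genes are induced by ERK. Of the 17, 11 rose and 2 fell in 16T, 8 rose and 3 fell in KP1, and 5 rose and 6 fell in KP22. Their medians were 0.42, 0.22 and -0.01. Dusp6, a phosphatase that turns ERK off, had the pattern of Egr1 per the authors' deposited table (1.44 ± 0.099, 0.90 ± 0.10 and -1.18 ± 0.21). So did the ETS factor gene Etv1 per the authors' deposited table (1.08 ± 0.087, 0.65 ± 0.085 and -1.23 ± 0.28). Their relatives had other patterns per the authors' deposited table. Etv5 rose in 16T (0.33 ± 0.097) but fell in KP1 (-0.60 ± 0.098) and in KP22 (-1.33 ± 0.20). Dusp5 fell in all 3 comparisons (-0.45 ± 0.19, -0.77 ± 0.18 and -1.15 ± 0.26). Spry1, which encodes a Sprouty inhibitor of receptor signalling, rose in all 3 per the authors' deposited table (0.77 ± 0.21, 1.10 ± 0.20 and 0.56 ± 0.19).

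Of 17 kinase genes of the ERK, JNK and p38 cascades, 16T had 3 that rose and 4 that fell, KP1 had 0 and 3, and KP22 had 1 and 9, with medians of -0.03, -0.04 and -0.16. In 16T these counts lie near the shares of all genes. Rps6ka1, a ribosomal S6 kinase gene, had the largest change of the list in KP1 (-0.49 ± 0.054) and in KP22 (0.52 ± 0.047) per the authors' deposited table, with no call in 16T (-0.09 ± 0.053). Map2k1, which encodes the ERK kinase MEK1, rose in 16T (0.44 ± 0.052) and fell in KP22 (-0.48 ± 0.053) per the authors' deposited table, with no call in KP1 (0.07 ± 0.052). Rps6ka5, which encodes MSK1, a kinase of CREB and histone H3, rose in 16T (0.60 ± 0.096) and fell in KP22 (-0.29 ± 0.099) per the authors' deposited table, with no call in KP1 (0.20 ± 0.094).

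Of 16 genes for the factors that bind immediate early promoters, with their coactivators, 16T had 4 that rose and 3 that fell, KP1 had 4 and 4, and KP22 had 1 and 6. Their medians were 0.04, -0.02 and -0.11. Elk3, a ternary complex factor, had the largest change of these in KP22 (-1.01 ± 0.12) and rose in 16T (0.38 ± 0.10) per the authors' deposited table. Srf itself fell in KP1 (-0.35 ± 0.059) and in KP22 (-0.15 ± 0.061) with no call in 16T (-0.08 ± 0.059) per the authors' deposited table. Of the NAB corepressors of Egr proteins, Nab2 fell in KP22 (-0.93 ± 0.15) per the authors' deposited table, and Nab1 had no call in any comparison.

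Signs of oxygen and heat stress were read in the same table. Of 12 tested hypoxia genes, 11 rose and 0 fell in 16T (median 1.78), in KP1 0 of 12 rose and 10 fell (median -0.34), and in KP22 2 of 13 rose and 5 fell (median -0.07). All tested genes rose and fell in shares of 20.0% and 25.3%, 17.6% and 19.6%, and 19.5% and 18.8% in these 3 comparisons. Of 12 heat shock genes, 16T had 2 that rose and 4 that fell, KP1 had 3 and 3, and KP22 had 3 and 3, with medians of -0.09, -0.09 and -0.01, counts near those shares. Hspb1 fell in KP22 (-2.85 ± 0.32) per the authors' deposited table, with no call in 16T (0.48 ± 0.31) or KP1 (0.52 ± 0.30). Hsph1 (-0.45 ± 0.041, -0.27 ± 0.042 and 0.39 ± 0.041) and Hspd1 (-0.40 ± 0.034, -0.25 ± 0.035 and 0.19 ± 0.034) were called in the reverse of the Egr1 pattern. Hspa8 (0.32 ± 0.029, 0.15 ± 0.029 and -0.11 ± 0.029) was called in the Egr1 pattern itself. Bag3 rose in 16T (0.41 ± 0.099) but fell in KP1 (-0.48 ± 0.10) and in KP22 (-0.82 ± 0.15). Hspa1a and Hspa1b, at low means of 19.7 and 49.6, had no call in any comparison. The part of hypoxia and heat shock genes in the values of the immediate early transcription factors was not tested. Of the neuroendocrine markers, Calca (1.31 ± 0.049, 0.90 ± 0.048 and -1.71 ± 0.056), Ddc (0.40 ± 0.037, 1.02 ± 0.036 and -0.60 ± 0.037) and Syp (0.44 ± 0.05, 0.21 ± 0.049 and -0.86 ± 0.051) were called in the pattern of Egr1 per the authors' deposited table. Insm1 was called in the reverse pattern (-0.19 ± 0.039, -0.19 ± 0.038 and 0.47 ± 0.039), and Chga fell in all 3 comparisons (-0.39 ± 0.036, -0.58 ± 0.036 and -1.04 ± 0.037). The markers named here were chosen after their values were seen, and their part in the results was not tested.

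The genes whose 3 log2 fold changes lay nearest to those of Egr1 were found by Euclidean distance among 12287 genes with a mean of at least 100, as a description over 3 comparisons. They were Cd200 (distance 0.52), Scg2 (0.56), Slc16a12 (0.60), Thbs1 (0.67) and Clstn2 (0.68). Fos lay at 0.999 from Egr1. From Egr1, 14 genes lay nearer than Fos, and from Fos, 65 lay nearer than Egr1. Nearest to Fos were Prune2 (0.35), Cyp46a1 (0.35), Prkar1b (0.37), Resp18 (0.42) and Slc16a12 (0.43). The nearest gene, Prune2, had 1.64 ± 0.05, 0.50 ± 0.049 and -2.48 ± 0.076 per the authors' deposited table. Cd200, a cell surface glycoprotein gene, had 1.93 ± 0.066, 0.75 ± 0.064 and -3.04 ± 0.15 per the authors' deposited table.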

How the data were processed

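Qiagen-extracted RNA went into Illumina TruSeq libraries, per the labels' protocols. TopHat, bedtools, DESeq, DESeq2 and mm10 are named in the submitters' processing notes, without versions. The name of the deposited table carries cqn, a normalization for GC content and length, whose use no header states. The table deposited by the authors gives, per gene, a mean normalized count (a signal over the libraries of their fit), log2 fold changes, their SEs, a Wald score, p-values and adjusted p-values, also for a test against 0.5. Median deposited SEs of 16T were 0.0685 at means of 1000 or more and 0.455 at 10 to 100, but 0.19 under 1, so effects look shrunken towards 0 at low means. The authors also deposited 211975 RefSeq exon intervals (coordinates on mm10), with lengths summed per gene here.

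The 28112 features were reduced to 23226 with 1 name, and the authors' adjusted p-values below 0.05 were used as calls. From the deposited effects, 2 contrasts were computed with Python 3.11.15, SciPy 1.17.1 and pandas 2.3.3 (normal reference, Benjamini-Hochberg over 15008 genes with a mean of at least 10). They were also run on data simulated with the authors' SEs taken as true, which cannot check those SEs. A p from the computed contrasts rests on the authors' SEs. The alternatives were the test against 0.5, a t distribution with 6 degrees of freedom, recentring, other filters on the mean and division by the Nfib change.

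Genes and lists were chosen with earlier results of these data known. Named by rule were all 10 genes, up to 6 called genes of each list with the largest change in a comparison, and the 5 genes with a mean of at least 100 nearest to Egr1 and to Fos. Which of these are shown, their values in other comparisons, Nab1, Rasa1, Nf1, Hspa1a, Hspa1b and the markers printed were chosen after values were seen. A further heading of the table, for knockdown as a whole, was not used here. Some genes of the lists are not reported here.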

Additional observations from a re-analysis of the deposited data

Results flagged for a closer look

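The effect of the Nfib shRNA differed between 16T and KP1 for 4 of the genes, by the test of the difference itself. The value in 16T minus that in KP1 was 0.63 on the log2 scale for Egr1, 0.68 for Fos, 0.89 for Klf6 and 1.52 for Egr4. All 4 were higher in 16T, and that of Egr4 was positive in 16T and negative in KP1 with no call in either line. Under a t reference with 6 degrees of freedom the differences of Fos and Egr4 were lost. That of Egr1 was kept close to the threshold (adjusted p = 0.0495).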

How the results depend on the processing

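Of single-gene values under the alternatives, 200 kept their direction and side of the threshold, 17 lost a call, 4 gained one and 2 changed sign. By the authors' test against 0.5, 3 of the genes were called in 16T in place of 6 and 1 in KP1 in place of 7. The shares of all genes so tested that were called were 5.25% in 16T and 4.58% in KP1. Under a t reference (6 degrees of freedom), the differences between 16T and KP1 were kept for Egr1 and Klf6 and lost for Fos and Egr4. Over all genes that distribution called 1533 higher and 1558 lower in KP1 in place of 2558 and 2844, and 2133 and 2192 in KP22 in place of 3423 and 3307. In 16T, 2907 genes were higher and 3667 lower, but 3400 and 3014 recentred on the median gene, and 535 and 278 by the test against 0.5. The 2 changes of sign were the uncalled difference of Ier2 between 16T and KP1, -0.018 as computed, 0.014 recentred and 0.045 per log2 unit of Nfib. The median gene lay at -0.046 in 16T, -0.014 in KP1 and 0.039 in KP22. No paired analysis was possible because values per sample were not used here, and leaving out a replicate was not run for the same reason. Depth per library is unknown, and the SEs of Egr2, Egr3 and Egr4 (0.34 to 0.52) limit what could be called for them.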

Other observations

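Jdp2, which encodes a repressor that pairs with Jun to bind AP-1 sites, rose in KP1 (0.57 ± 0.17) and fell in KP22 (-1.75 ± 0.20) per the authors' deposited table, with no call in 16T (0.37 ± 0.18). Atf4, the main factor of the integrated stress response, rose in all 3 per the authors' deposited table (0.31 ± 0.041, 0.29 ± 0.041 and 0.14 ± 0.041). Dusp2, a nuclear phosphatase gene, fell in 16T (-1.30 ± 0.32) and in KP22 (-2.38 ± 0.28) per the authors' deposited table, with no call in KP1 (0.44 ± 0.33).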
